A study of Mus musculus with 96 samples.

Results

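The 8 libraries described here are the vehicle-treated hypothalami collected 29 days post-injury (dpi), 4 from injured mice (TBI + VH) and 4 from sham-injured mice (Sham + VH), out of 96 RNA-seq libraries in the series. They were chosen by their labels for region, time, injury and treatment, and no gene was selected: of the 32594 genes counted, 17165 passed the filter on low counts and were tested. All were male C57BL/6 mice, 8 to 10 weeks old when obtained. In TBI + VH a controlled cortical impact, a piston strike on the exposed cortex, was given through a 3 mm craniectomy, whereas Sham + VH mice had anaesthesia and a scalp incision without craniectomy, so the craniectomy and the impact cannot be told apart. Both groups received the vehicle, 0.9% saline with 0.1 N Na2CO3, by intraperitoneal injection at 6 h and from an osmotic pump placed at 24 h. Mice were perfused with saline, and the hypothalamus was taken from the injured side. The 4 samples of a group that were sequenced had been picked for RNA quality. The labels do not say whether the 4 libraries of a group come from separate animals, and the p-values measure the spread between these samples only. The same tissue from mice given candesartan, a blocker of the angiotensin AT1 receptor, at 0.1 mg/kg per day (Sham + CD and TBI + CD, 4 libraries each), the hypothalamus at 3 dpi, and the hippocampus and thalamus at 29 dpi are used only for comparison.

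The hypothalamus lies at the base of the brain, far below the impacted cortex. Its neurons secrete peptides that set feeding, water balance, stress hormones, growth, reproduction and body temperature, and tanycytes and ciliated ependymal cells line the ventricle at its centre. It carries dense AT1 receptors, and the comparison asks whether gene expression there still differs a month after a lesion elsewhere. In a damaged brain, astrocytes raise Gfap and complement genes, and microglia raise a phagocytic gene programme led by Clec7a, Itgax and Gpnmb.

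Library totals ran from 15921921 to 34942728 counts in Sham + VH (median 25900198) and from 14850783 to 35631736 in TBI + VH (median 30060443). Defining genes of the tissue were present: in CPM, counts scaled to a common library size, the 4 Sham + VH libraries ran from 203 to 266 for Avp (vasopressin) when the 3 regions were scaled together, against 0.133 to 1.06 in the hippocampus, and 24.9 to 28.3 for Nkx2-1, while Neurod6 of cortical and hippocampal neurons was at 0.645 to 2.25 and Prkcd of thalamic neurons at 15 to 21.8. The libraries differed in genes of the ciliated ventricle wall and in pituitary hormone RNA. TBI + VH replicate 4 was nearly without motile cilia genes (Ccdc153 at 0.252 CPM, against 18.8 to 29.2 in the rest of its group and 18.1 to 29.8 in Sham + VH), and Sham + VH replicate 3 and TBI + VH replicates 1 and 4 held growth hormone RNA (Gh at 68.8, 34.3 and 176 CPM, against 0.0665 to 2.75 in the other 5). In bulk tissue, fewer cells of a type and less RNA per cell cannot be told apart.

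A month after injury a single gene passed the test in the hypothalamus of vehicle mice. The long non-coding RNA Malat1 was called higher in TBI + VH, at a false discovery rate (FDR, Benjamini-Hochberg) under 0.05 in edgeR's quasi-likelihood test with an absolute log2 fold change above 0.32, which is 0.00583% of the genes tested. At an unadjusted p under 0.05 there were 221 genes higher (1.29% of those tested) and 258 lower (1.5%), and the 4 TBI + VH libraries lay wholly above the 4 Sham + VH libraries for 176 genes (1.03%) and wholly below for 189 (1.10%). Without the 5 hypothalamic libraries low in motile cilia genes, described with the other cell types, 785 genes had an unadjusted p under 0.05, against 479. The shares over all genes printed beside list counts are those with every library in, so list counts in other settings lack a share of their own. The median log2 fold change over all genes was 0.00, with 8719 genes (50.8%) above 0. DESeq2 called 2 genes, Malat1 and BC071253. The estimates were tight for most genes: the median standard error (SE) was 0.09, and the 95% interval lay within 1 log2 unit of 0 for 15867 of 17165 genes (92.4%) and within 0.32 for 10478 (61.0%). Among the 10635 genes averaging 10 CPM or more, 9578 (90.1%) had an interval within 0.32 of 0.

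Malat1 is a long nuclear RNA that gathers at splicing speckles and is among the more abundant RNAs of neurons. The gene lies on the minus strand at chr19:5795690-5802672 (GRCm38, annotated as a lincRNA), and by mean CPM it ranked 137 of the 32594 genes in these 8 libraries. Its level was 435, 499, 440 and 368 CPM in Sham + VH and 911, 883, 962 and 731 CPM in TBI + VH. Every injured library lay well above every sham library, and the groups did not overlap. The means were 435 ± 53.5 and 872 ± 99.6 CPM (SD, n = 4). The log2 fold change was 1.0 (SE 0.14, 95% interval 0.71 to 1.30), or 2.0-fold, with an FDR of 0.0306 in edgeR's quasi-likelihood test. With each of the 16 libraries of the fit left out in turn, the log2 fold change stayed between 0.93 and 1.08, but the FDR ran from 0.0041 to 0.244 and Malat1 was called in 5 of 16. The call was lost without any single vehicle library other than TBI + VH replicate 4, without Sham + CD replicate 1, 2 or 3 and without TBI + CD replicate 1.

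**Figure D1:**
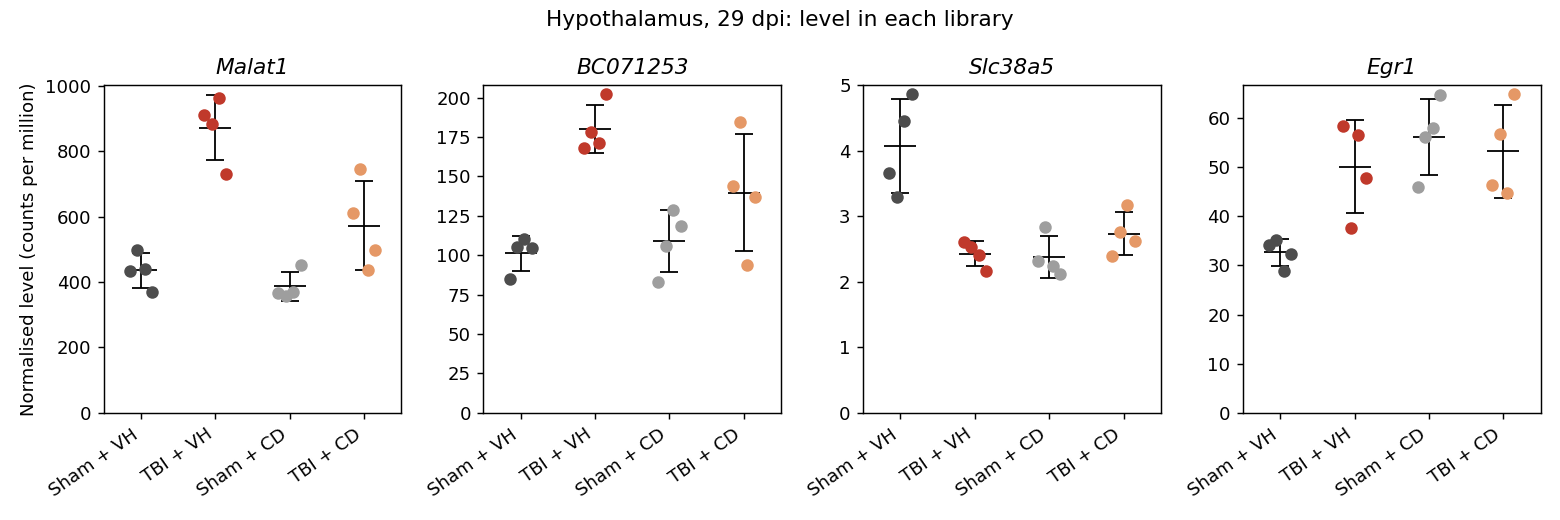
Level of selected genes in each hypothalamic library at 29 dpi (y axis, CPM from 0; x axis, the 4 groups; points, libraries; bars, mean and SD, n = 4). Malat1 runs from 731 to 962 in TBI + VH and from 368 to 499 in Sham + VH, without overlap.

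The higher Malat1 level was measured in the hypothalamus at 29 dpi and not in the other sets of vehicle libraries. In the hypothalamus at 3 dpi Malat1 was at 440, 404, 377 and 572 CPM in sham mice and 507, 524, 555 and 426 CPM in injured mice. These groups overlapped (log2 fold change 0.17, SE 0.18), and the difference between the times was 0.84 (SE 0.24, edgeR FDR 1), short of the threshold. In the hippocampus at 29 dpi, next to the lesion, Malat1 was at 1548, 1311, 1673 and 1475 CPM in sham and 1215, 1189, 1232 and 1450 CPM in injured mice, a log2 fold change of -0.24 (SE 0.10). The injured hippocampal libraries were mostly the lower ones, the opposite order to the hypothalamus. In the thalamus at 29 dpi the values were 671, 733, 885 and 857 CPM in sham and 770, 799, 680 and 716 CPM in injured mice, which overlap (-0.09, SE 0.09). Tested as differences of injury effects, with the regions treated as independent, hypothalamus minus hippocampus was 1.24 (SE 0.17, edgeR FDR 7.63e-05) and hypothalamus minus thalamus was 1.08 (SE 0.17, edgeR FDR 0.00326). The latter was the only call of that comparison (0.00558% of 17935 genes). The labels do not say whether libraries of different regions come from the same mice, and shared mice were not modelled.

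**Figure D2:**
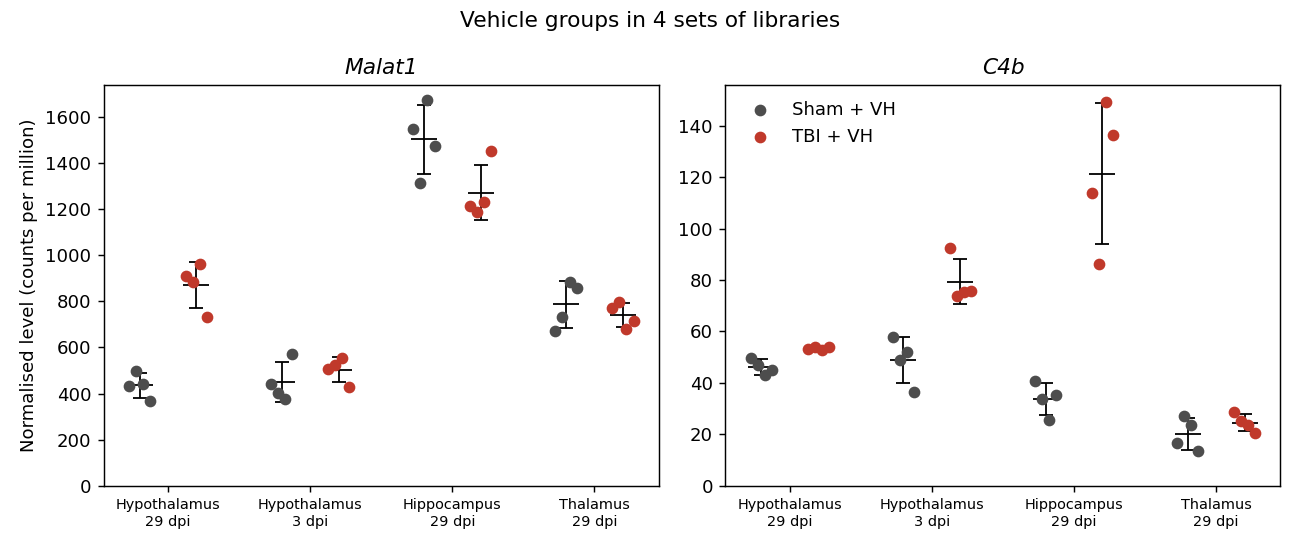
Malat1 and C4b in the vehicle libraries of the hypothalamus at 29 and 3 dpi and of the hippocampus and thalamus at 29 dpi (y axes, CPM from 0; points, libraries; bars, mean and SD, n = 4). Malat1 separates the groups in the hypothalamus at 29 dpi, whereas C4b reaches 86.4 to 149 CPM in the injured hippocampus and 52.9 to 54.0 CPM in the injured hypothalamus; each set of libraries was normalised on its own.

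In candesartan-treated mice the Malat1 values were 367, 358, 369 and 453 CPM after sham and 611, 747, 436 and 497 CPM after injury. Here 1 injured library lay within the sham range. The log2 fold change was 0.57 (SE 0.14, edgeR FDR 0.745), no gene was called in that contrast (0% of 17165) and 1103 genes had an unadjusted p under 0.05, while DESeq2 called Ildr2. Leaving out Sham + CD replicate 1 or 3 gave 2159 or 573 such genes, and leaving out TBI + CD replicate 1, 3 or 4 gave 718, 732 or 2281. The injury effect on Malat1 was larger in vehicle than in candesartan mice by 0.44 (SE 0.20, edgeR FDR 0.791), which does not pass the threshold. No gene was called in this difference by edgeR or DESeq2, and 885 had an unadjusted p under 0.05, or 596 to 1762 with each library left out (1700 without Sham + CD replicate 1, 1762 without TBI + CD replicate 4).

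BC071253, a gene that the counts name only by a GenBank-style identifier, had the smallest p after Malat1 among the higher genes, and GU332589, named likewise, was among the 10 smallest. Neither has a position in the annotation used here, so whether their reads are independent of those of Malat1 was not tested. BC071253 was at 85.2, 105, 110 and 104 CPM in Sham + VH and 168, 178, 171 and 202 CPM in TBI + VH. The groups were far apart, and in candesartan mice 1 injured library again fell within the sham values (82.9, 106, 129 and 118 against 144, 184, 94.1 and 137 CPM). Its log2 fold change in vehicle mice was 0.83 (SE 0.16) with an edgeR FDR of 0.427. It passed the threshold in DESeq2, in a fit of the 8 libraries alone and in the likelihood ratio test. GU332589 was at 8.21, 8.22, 9.07 and 11.5 CPM in Sham + VH and 12, 15.6, 12.2 and 17.4 CPM in TBI + VH. Its groups did not overlap either, with a log2 fold change of 0.63 (SE 0.17, edgeR FDR 1), and in candesartan mice it was 0.51 (SE 0.17).

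Other long nuclear RNAs did not share the pattern of Malat1. Neat1, the scaffold of paraspeckles and the neighbour of Malat1 on chromosome 19, was at 18.9, 22.2, 15 and 17.9 CPM in Sham + VH and 16.4, 19.7, 18.2 and 16.4 CPM in TBI + VH, values that overlap. Of 17 tested members of a nuclear long RNA list, Malat1 was the single member with an unadjusted p under 0.05 on the higher side (1.29% of all genes), and the 3 on the lower side (1.5%) were Meg3, an imprinted RNA, at -0.17, Miat at -0.18 and Snhg11 at -0.16. Leaving out Sham + VH replicate 4 took the count of 3 to 0, and leaving out TBI + VH replicate 3 took it to 5. It was 1 when any one of Sham + VH replicates 2 and 3 and TBI + VH replicates 1 and 4 was left out. The median of the list was -0.06 with 5 of 17 above 0. Genes of speckle and paraspeckle proteins were close to sham: the 26 tested had a median log2 fold change of -0.02 and ran from -0.12 to 0.11, and none passed the FDR.

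Immediate early genes, which neurons switch on within minutes of activity, were the gene list with the most members at an unadjusted p under 0.05. Of 21 tested, 8 were higher and 1, Npas4, was lower, beside 1.29% and 1.5% of all genes, and none passed the FDR. The median log2 fold change was 0.22, against 0.00 over all genes, with 16 of 21 above 0, and ran from 0.09 without Sham + VH replicate 4 to 0.31 without Sham + VH replicate 1. Egr1, a zinc finger transcription factor, was at 34.1, 35.2, 29.0 and 32.3 CPM in Sham + VH and 58.4, 37.6, 56.5 and 47.9 CPM in TBI + VH. The groups did not overlap, although TBI + VH replicate 2 was close to the sham values, and the log2 fold change was 0.63 (SE 0.14, edgeR FDR 1). Egr3, of the same family, was at 2.76, 3.61, 3.31 and 2.64 CPM against 4.95, 4.59, 4.72 and 6.35 CPM. It too was higher in every injured library, by 0.75, as was Egr4 by 0.50 (1.29 to 2.15 against 2.22 to 2.78 CPM).

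The Fos and Jun partners of the AP-1 transcription factor overlapped between groups. Fosb was at 2.39, 4.80, 2.0 and 2.02 CPM in Sham + VH and 6.05, 3.59, 6.10 and 3.71 CPM in TBI + VH (0.85, SE 0.29), with sham replicate 2 among the injured values. Fos was at 20.1, 11.6, 9.05 and 10.1 CPM and 21.5, 14.1, 21.0 and 15.9 CPM (0.51). The remaining 3 were Junb at 0.37, the nuclear receptor Nr4a1 at 0.37 and the synaptic gene Arc at 0.31. Npas4 went the other way, from 13.5, 10.4, 13.3 and 11 CPM to 9.36, 10.4, 11 and 8.76 CPM (-0.29). Jun (0.08), Dusp1 (0.17) and Sik1 (0.08) lay near 0. The count of 8 members was 5 without Sham + VH replicate 2, 3 or 4 or without TBI + VH replicate 3, and 10 with Sham + VH replicate 1 left out. The number of all genes at such a p also depends on the libraries used, and it is not given here for these settings.

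For Egr1 and Egr3 the vehicle sham libraries were the low ones of the 4 groups. Egr1 was at 45.9, 56.1, 58.0 and 64.7 CPM in Sham + CD and 46.5, 56.7, 44.8 and 65.0 CPM in TBI + CD, so the candesartan shams lay above all 4 vehicle shams and overlapped the injured mice of both treatments. Its injury effect was -0.08 under candesartan, and the difference between treatments was 0.71 (SE 0.19, edgeR FDR 0.791). Egr3 in Sham + CD was likewise at 5.56, 5.14, 8.38 and 4.68 CPM. This did not hold for the list as a whole: its summed level spanned 258 to 319 CPM for the vehicle shams and 310 to 345 CPM for the injured vehicle mice, with Sham + VH replicate 1 inside the latter range, while the candesartan shams spanned 296 to 340 CPM and the injured candesartan mice 295 to 334 CPM. In candesartan mice 1 member of the list was higher and 1 lower at a p under 0.05 (background 3.63% and 2.8%), and in the difference between treatments 6 were higher and 0 lower (background 2% and 3.16%). The list median was 0.00 in the hypothalamus at 3 dpi, 0.00 in the hippocampus and 0.07 in the thalamus.

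**Figure D3:**
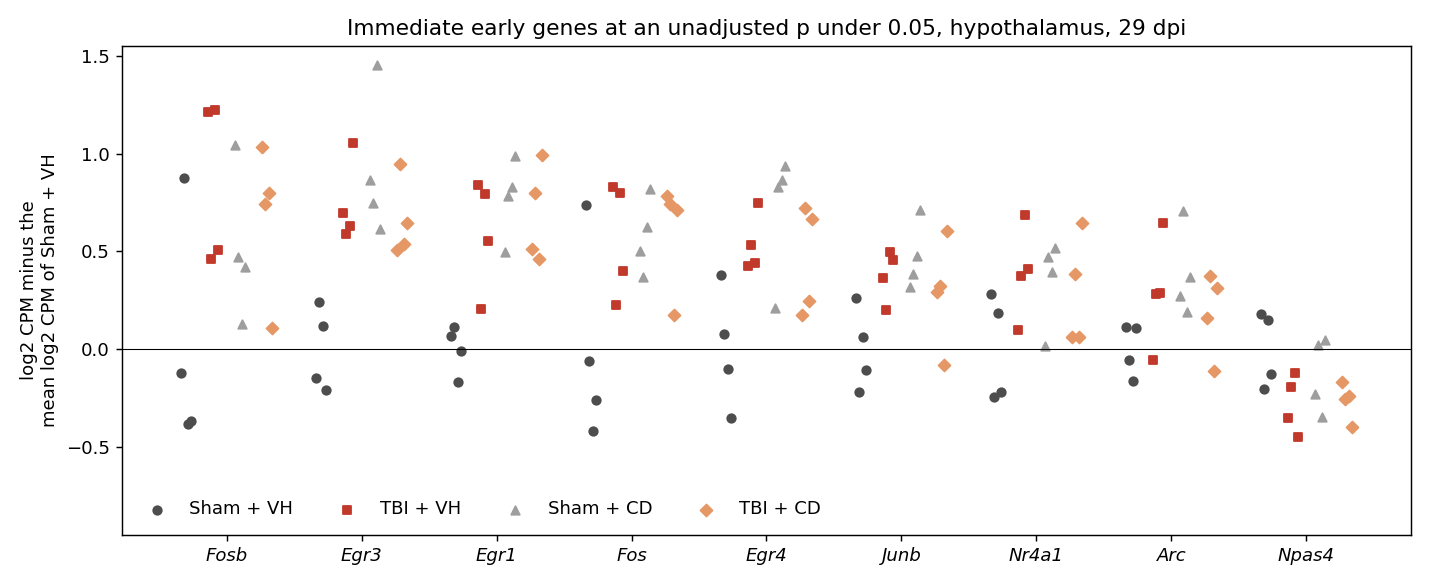
Immediate early genes with an unadjusted p under 0.05 in each hypothalamic library at 29 dpi, as log2 CPM minus the mean of Sham + VH (y axis; 0 is that mean; points, libraries of the 4 groups). For Egr1 and Egr3 the Sham + VH points lie below those of the other 3 groups.

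Promoters are shown for Malat1 and for 3 of the members of the immediate early list with a p under 0.05 (Fosb, Nr4a1 and Npas4 also had a window and are not printed), so that these windows can be compared. Each is the 250 bases upstream of the start in RefSeq for GRCm38.p6, written 5′ to 3′ on the strand of the gene, and capitals mark TGACG, the core of the cyclic AMP response element TGACGTCA, on either strand (read as CGTCA on the other). Overlaps between the 5-letter core and the full element count for both.
Malat1, minus strand, chr19:5802673-5802922: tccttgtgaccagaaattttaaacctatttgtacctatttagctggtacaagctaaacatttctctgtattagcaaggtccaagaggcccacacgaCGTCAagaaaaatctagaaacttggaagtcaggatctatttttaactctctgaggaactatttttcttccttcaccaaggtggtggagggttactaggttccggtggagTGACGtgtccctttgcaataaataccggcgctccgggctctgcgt
Fos, plus strand, chr12:85473640-85473889: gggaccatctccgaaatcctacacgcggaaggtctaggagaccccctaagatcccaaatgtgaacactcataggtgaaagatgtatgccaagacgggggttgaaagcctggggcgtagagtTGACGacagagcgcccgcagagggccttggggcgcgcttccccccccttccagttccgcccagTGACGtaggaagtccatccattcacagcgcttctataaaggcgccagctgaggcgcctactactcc
Junb, minus strand, chr8:84978749-84978998: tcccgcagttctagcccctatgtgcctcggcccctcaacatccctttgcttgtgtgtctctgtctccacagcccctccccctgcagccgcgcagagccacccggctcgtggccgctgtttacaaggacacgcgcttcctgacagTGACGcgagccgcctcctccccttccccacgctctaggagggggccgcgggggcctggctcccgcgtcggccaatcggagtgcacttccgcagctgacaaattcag
Egr4, minus strand, chr6:85513590-85513839: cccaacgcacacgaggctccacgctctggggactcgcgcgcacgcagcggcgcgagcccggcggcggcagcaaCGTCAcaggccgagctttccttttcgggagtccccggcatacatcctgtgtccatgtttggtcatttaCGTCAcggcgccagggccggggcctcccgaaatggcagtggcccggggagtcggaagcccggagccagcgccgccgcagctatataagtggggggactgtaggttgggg

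Malat1, Fos and Egr4 each held 2 matches to TGACG and Junb held 1. Of the windows not printed, Fosb held 1, Nr4a1 held 4 and Npas4, which was lower, held 2. The core was found in 14 of the 15 members of the list that had a promoter entry, and in 5347 of 27025 genes (19.8%) in windows of the same length, a gene with several windows counting once. The full element was in 2 of the 15 and in 478 genes (1.77%). A match is a description of the letters in the window, not a bound site. Windows of Egr1, Egr3, Arc, Cyr61, Ier2, Sik1 and BC071253 were not used here.

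Glial genes of the injury response were close to sham values in the hypothalamus. Gfap, the intermediate filament of astrocytes, was at 256, 242, 210 and 214 CPM in Sham + VH and 295, 269, 287 and 331 CPM in TBI + VH. The injured libraries were all higher, without overlap, by a log2 fold change of 0.36 (SE 0.10, edgeR FDR 1). C4b, complement component 4, was at 49.8, 47.1, 43.0 and 44.9 CPM against 53.1, 53.8, 52.9 and 54.0 CPM. This too was without overlap but small, 0.21 (SE 0.07, edgeR FDR 1). Of 19 tested reactive astrocyte genes these 2 had a p under 0.05 on the higher side (1.29% of all genes) and Lcn2 on the lower side (1.5%), Lcn2 at no more than 1.45 CPM in any vehicle library. The count of 2 was 5 without TBI + VH replicate 4 and 6 without the 5 hypothalamic libraries low in cilia genes. Without those 5 libraries 785 of all genes had an unadjusted p under 0.05, against 479 with every library in. The list median was 0.12 with 13 above 0, and it ran from -0.09 without TBI + VH replicate 1 to 0.19 without replicate 3. Serpina3n, an acute-phase protease inhibitor, was at 47.4, 61.0, 57.9 and 54.1 CPM against 79.3, 73.8, 59.3 and 50.3 CPM, which overlap (0.25). Vim (-0.01), Cd44 (0.22) and C3 (0.26) had intervals that include 0.

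None of 19 homeostatic microglia genes, which mark resting microglia, had a p under 0.05, although 2 did without TBI + VH replicate 1. Their median was 0.07 and fell to 0.03 without TBI + VH replicate 4. Of 21 disease-associated microglia genes, Gpnmb was higher (0.818, 1.31, 0.970 and 1.24 against 1.73, 2.73, 1.32 and 1.05 CPM, overlapping; 0.64) and the lipase Lpl was lower (-0.40) at an unadjusted p under 0.05 (1.29% and 1.5% of all genes), with a median of 0.10. Leaving out TBI + VH replicate 3 gave 3 higher members, and leaving out any one of TBI + VH replicate 2 and Sham + VH replicates 1 and 3 gave 0. Lpl no longer passed in the last of these. Clec7a, a receptor of phagocytic microglia, was at 0.333, 0.560, 0.428 and 0.725 CPM against 0.729, 0.466, 0.478 and 0.613 CPM. It was barely detected in either group. Trem2 (0.10) and Cd68 (0.18) were near 0. Of 25 complement and interferon genes, the complement gene C2 alone had a p under 0.05, at 3.36, 2.99, 3.45 and 2.79 CPM against 4.56, 4.06, 3.85 and 4.51 CPM (0.42), with no overlap. The median of that list ran from -0.14 without TBI + VH replicate 1 to 0.14 without replicate 4.

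At 3 dpi these lists stood further from sham in the hypothalamus, although no gene was called there by edgeR (0% of 16946) or DESeq2 and 577 had an unadjusted p under 0.05, or 1765 without Sham + VH replicate 4. That library held Gh at 315 CPM, and Sham + VH replicates 1 and 2 were nearly without Ccdc153 (0.0747 and 0.378 CPM, against 14.1 to 29.1 in the other 6). Of the disease-associated microglia genes 14 of 21 were higher at an unadjusted p under 0.05 (background 1.85%), with a median of 0.36, and of the reactive astrocyte genes 5 of 19, with a median of 0.38. C4b was at 57.8, 48.9, 52.1 and 36.5 CPM in sham and 92.6, 73.9, 75.3 and 75.7 CPM in injured mice at that time, without overlap (0.70, SE 0.16, edgeR FDR 1). No gene passed in the difference between 29 and 3 dpi by edgeR (0% of 17364) or DESeq2, where 400 had an unadjusted p under 0.05 (837 without Sham + VH replicate 4 of 3 dpi), so the lower values at 29 dpi are given side by side and not as a change.

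The hippocampus at 29 dpi gives the values of the same groups near the lesion. There 89 genes were called (0.529% of 16832), 88 of them higher, and 83 of the 88 were tested in the hypothalamus. Their median log2 fold change was 0.88 in the hippocampus and 0.08 in the hypothalamus, where 63 of 83 (75.9%) lay above 0, beside 50.8% of all genes. In the hypothalamus 3 of the 83, Gfap, C4b and Gpnmb, were higher at an unadjusted p under 0.05, beside 1.29% of all genes. Klhl6 alone was lower, beside 1.5% of all genes. It was at 2.0, 1.37, 1.51 and 1.71 CPM in Sham + VH and 1.22, 1.40, 0.815 and 1.19 CPM in TBI + VH (-0.55). The values in the hypothalamus ran from -0.55 to 0.64, and for all 83 the upper end of the 95% interval was below the hippocampal estimate. That interval leaves out the error of the hippocampal estimate. In the tested difference between the regions 6 of the 83 were called, beside 0.0558% of all genes. The hippocampal values chose the genes and are therefore given as a description. Itgax was 4.65 in the hippocampus and 0.22 in the hypothalamus, and Clec7a was 3.31 and 0.24. Neither passed in the tested difference between the regions (edgeR FDR 0.45 and 0.449). Of the disease-associated microglia genes, 20 of 23 were higher in the hippocampus at an unadjusted p under 0.05 (background 4.81%), and of the reactive astrocyte genes 18 of 22. With each vehicle library left out in turn, the number of the 83 above 0 in the hypothalamus ranged from 52 to 72. Their median there ran from 0.04, without TBI + VH replicate 1, to 0.11, without Sham + VH replicate 2.

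**Figure D4:**
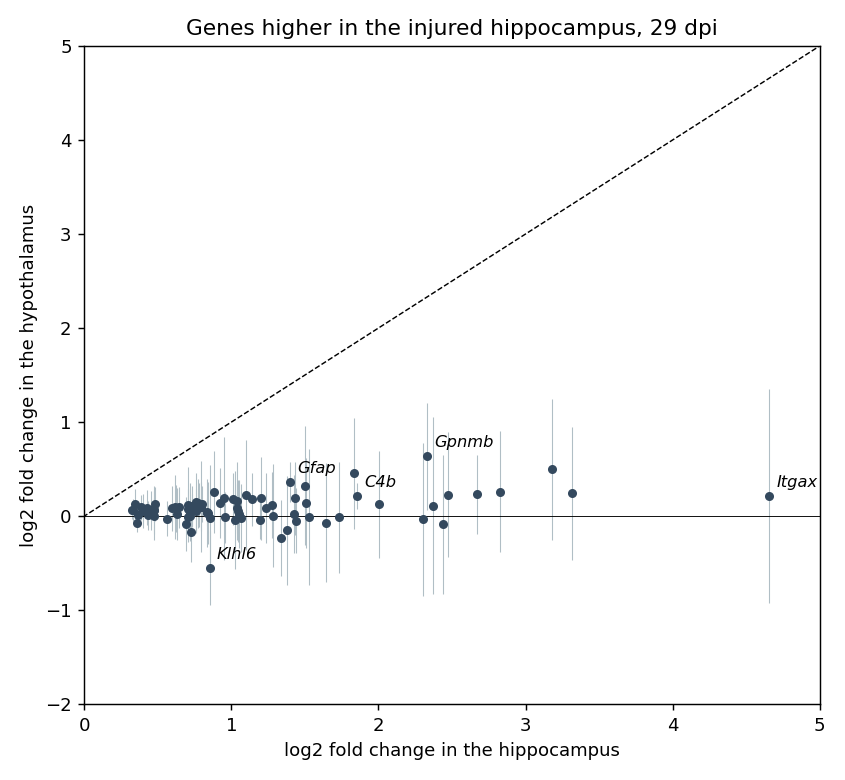
The 83 genes called higher in the injured hippocampus, as log2 fold change in the hippocampus (x axis) and in the hypothalamus (y axis) at 29 dpi, with the dashed line where both are equal. All points lie below the line, between -0.55 and 0.64 on the y axis.

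The difference between the regions was tested over 17935 genes, with the regions treated as independent, and 10 were called (0.0558%). Malat1 had the higher injury effect in the hypothalamus. The other 9 had the higher effect in the hippocampus: C4b, complement C3 and the lysozyme gene Lyz2, Klhl6, St14, Tgm1, Myo1c, Kcne1l and P4ha3. C3 was 0.26 in the hypothalamus and 2.83 in the hippocampus (difference -2.58, edgeR FDR 0.0190), and Lyz2 was 0.23 and 2.67 (-2.44, edgeR FDR 0.0133). P4ha3, a collagen prolyl hydroxylase, was -0.04 and 1.20 (-1.24, SE 0.17, edgeR FDR 7.63e-05). Tissue markers moved in the same hippocampal contrast: the choroid plexus genes had a median of -1.87 with 0 of 19 above 0, and the pituitary genes a median of -2.98 over 4 tested, with Gh at 211 CPM and Pomc at 95.5 CPM in hippocampal Sham + VH replicate 3. Their part in the differences between the regions was not tested. In the thalamus no gene was called at 29 dpi by edgeR (0% of 16957) or DESeq2, and 419 had an unadjusted p under 0.05. That count was 241 without the thalamic Sham + VH replicate 3, 659 without Sham + VH replicate 2 and 675 without TBI + VH replicate 1. In the thalamic contrast the choroid plexus genes had a median of -2.62, with 16 of 19 lower at an unadjusted p under 0.05, beside 278 of 16957 genes. The part of these genes in the thalamic values was not tested.

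Genes of the hypothalamic neuroendocrine systems lay close to sham. None of 19 arcuate and feeding peptide genes, 19 magnocellular, releasing and clock peptide genes, 31 hormone and peptide receptor genes or 28 hypothalamic transcription factor genes had a p under 0.05, and the list medians were 0.05, -0.01, -0.01 and 0.01. Over all genes 1.29% were higher and 1.5% lower at such a p, so a count of 0 in lists of this size is near those shares. With single vehicle libraries left out the medians ran from 0.03 to 0.15, -0.02 to 0.04, -0.04 to 0.01 and -0.02 to 0.08. Avp was at 250, 233, 283 and 216 CPM in Sham + VH and 256, 213, 296 and 327 CPM in TBI + VH. The groups overlapped, with a log2 fold change of 0.15 (95% interval -0.19 to 0.50). Oxt (oxytocin) was at 169, 210, 182 and 180 CPM against 191, 172, 184 and 116 CPM, overlapping except for the low TBI + VH replicate 4 (-0.16, interval -0.63 to 0.31). Trh, the releasing hormone of the thyroid axis, was at 153, 137, 170 and 148 CPM against 154, 135, 160 and 156 CPM. That is a log2 fold change of -0.01 with an interval from -0.21 to 0.20.

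Several peptide genes varied too much between libraries for a narrow estimate. Pmch, the melanin-concentrating hormone of the lateral hypothalamus, was at 490, 335, 280 and 370 CPM in Sham + VH and 278, 286, 332 and 562 CPM in TBI + VH (-0.02, interval -0.58 to 0.55). Hcrt (orexin) was at 62.7, 64.3, 45.6 and 57.1 CPM against 25.4, 59.6, 53.9 and 135 CPM. Pomc, the precursor of melanocortin and ACTH that the pituitary also expresses, was at 29.2, 44.7, 351 and 33.8 CPM against 57.0, 51.6, 38.2 and 194 CPM. Its high libraries, Sham + VH replicate 3 and TBI + VH replicate 4, are those with the most Gh RNA, and the part of pituitary tissue in the Pomc values was not tested. Of 7 tested pituitary genes none had a p under 0.05, and the summed level of all 13 listed was 344 to 464 CPM in Sham + VH and 340 to 612 CPM in TBI + VH. Crh, the releasing hormone of the stress axis, was at 3.45, 5.11, 6.53 and 3.67 CPM against 4.62, 3.86, 5.90 and 5.95 CPM (0.12, interval -0.34 to 0.58).

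Receptors had narrower estimates. The 31 receptor genes ran from -0.12 to 0.16, among them Thra (thyroid hormone, 0.01), Nr3c1 (glucocorticoid, 0.00), Insr (insulin, -0.05) and Lepr (leptin, -0.01, interval -0.45 to 0.42). Of 19 renin-angiotensin genes listed, 13 were tested, with a median of 0.00 and no p under 0.05. Agt, which encodes angiotensinogen, was at 329, 342, 324 and 353 CPM in Sham + VH and 303, 383, 368 and 377 CPM in TBI + VH (0.09). Agtr1a, the gene of the AT1 receptor that candesartan blocks, was at 3.06, 2.93, 2.74 and 3.11 CPM against 3.55, 3.26, 2.92 and 1.37 CPM. Both overlapped, and the low Agtr1a value belongs to TBI + VH replicate 4 (-0.09, interval -0.60 to 0.41, and of the other sign in 3 of 25 settings). Agtr2 was at 1.39, 1.37, 1.77 and 1.66 CPM against 1.52, 1.93, 1.83 and 2.49 CPM (0.31, SE 0.24), and Ace was at 60.3 to 63.5 CPM against 58.6 to 62.4 CPM. None of 18 circadian clock genes had a p under 0.05 (median -0.06).

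Some genes that glucocorticoids and stress induce were higher at an unadjusted p. Sgk1, a kinase that responds to corticosteroids and osmotic stress, was at 21.3, 30.8, 21.3 and 23.0 CPM in Sham + VH and 39.6, 31.1, 40.5 and 41.5 CPM in TBI + VH. The groups did not overlap, though the nearest libraries were almost equal (0.69, SE 0.31), and in candesartan mice the effect was 0.90 (SE 0.30). Arl4d was at 2.27, 3.30, 1.88 and 2.17 CPM against 4.10, 2.66, 4.78 and 5.01 CPM (0.83), with replicate 2 of both groups in the overlap. Fkbp5 (0.07), Tsc22d3 (0.12) and Per1 (0.10), classical glucocorticoid targets, had intervals that include 0. Of the 20 genes of this list, 2 had an unadjusted p under 0.05 on the higher side (1.29% of all genes) and Lcn2 on the lower side (1.5% of all genes), with a median of 0.10. Over the other settings the number higher ran from 1 to 3 and the number lower from 0 to 2. In candesartan mice 6 of the 20 had an unadjusted p under 0.05 on the higher side (3.63% of all genes there), with a median of 0.15. In that contrast Sham + CD replicates 2, 3 and 4 and TBI + CD replicate 4 were low in motile cilia genes, and the part of this was not tested. All 20 heat shock and unfolded protein genes lay above 0, as did 50.8% of all genes, with a median of 0.10 that was 0.05 without TBI + VH replicate 1. Among them Hspa8 had a p under 0.05 (593, 599, 578 and 563 against 661, 618, 635 and 618 CPM; 0.12), and no member did once TBI + VH replicate 1 or Sham + VH replicate 3 or 4 was left out. The count was 2 with Sham + VH replicate 1 left out, 4 with a replicate block, 5 without the 5 libraries low in cilia genes and 6 with the cilia score as a covariate. Over all genes the number at such a p also moved, to 785 without those 5 libraries, against 479 with every library in.

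Vessel genes lay mostly below 0. Of 24 endothelial and mural cell genes 4 were above 0 and the median was -0.14, with 2 lower at a p under 0.05 (background 1.5%). With libraries left out the median ran from -0.26, without TBI + VH replicate 1, to -0.05, without replicate 4 (-0.06 without replicate 3), and the number lower from 2 to 5. Vwf, von Willebrand factor of endothelium, was at 8.39, 6.85, 7.08 and 7.66 CPM in Sham + VH and 6.35, 5.46, 4.69 and 4.43 CPM in TBI + VH. Myh11, the myosin of smooth muscle, was at 8.09, 7.22, 5.62 and 4.92 CPM against 4.71, 4.86, 3.54 and 3.86 CPM. Neither overlapped (-0.52 and -0.62), and neither passed the FDR. The summed level of the list was 515 to 613 CPM against 476 to 608 CPM, which overlap, and Cldn5 of tight junctions was at -0.11. Under candesartan 21 of 24 lay above 0 (median 0.21), and in the difference between treatments 7 were lower at a p under 0.05 (background 3.16%), with a median of -0.40. Other markers moved in the same contrasts: Sham + CD replicates 2, 3 and 4 and TBI + CD replicate 4 were low in motile cilia genes (mean log2 CPM 0.80, 1.44, 1.62 and 0.85, against 3.36 to 4.05 in the other 4), the cilia list had a median of 1.09 under candesartan and -1.24 in the difference, and 7 of 13 thalamus genes had an unadjusted p under 0.05 on the higher side under candesartan (3.63% of all genes), with 12 of 13 above 0. Their part in the vessel values was not tested.

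Slc38a5, an amino acid transporter, had the smallest p among the lower genes. It was at 3.66, 3.30, 4.45 and 4.86 CPM in Sham + VH and 2.61, 2.53, 2.42 and 2.16 CPM in TBI + VH. The groups did not overlap (-0.75, SE 0.14, edgeR FDR 0.427), and Sham + CD, at 2.32, 2.83, 2.24 and 2.12 CPM, lay below all 4 vehicle shams, as the injured vehicle mice did. Slc6a6, the taurine transporter, was at 142, 148, 159 and 151 CPM against 124, 136, 134 and 135 CPM (-0.18), without overlap. Among the higher genes, Tnfrsf12a, the receptor for the cytokine TWEAK, was at 2.09, 1.74, 2.28 and 1.66 CPM against 2.83, 3.79, 3.09 and 3.06 CPM (0.68, SE 0.15). The other genes with the smallest p were Zfp78 (0.47), Hacd2 (0.17) and 2310030G06Rik (0.47), and on the lower side Ppp4r1l-ps (-0.22), Mir3072 (-0.51), Lmo7 (-0.37), Snapc4 (-0.22), AK141638 (-0.35), Firre (-0.19) and Rgs11 (-0.26). Gm14308 had the widest spread of them, at 0.727, 8.91, 12.2 and 0.207 CPM in Sham + VH and 1.28, 0.266, 0.393 and 0.541 CPM in TBI + VH (-3.07, SE 0.91), so its difference rests on 2 sham libraries.

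Markers of other cell types and tissues had few members with a p under 0.05. There were none among 23 ependymal and motile cilia genes, whose median was -0.11 and turned to 0.24 without TBI + VH replicate 4, with a summed level of 377 to 502 CPM in Sham + VH and 106 to 541 CPM in TBI + VH. Malat1 remained the single call, with an FDR of 0.0273, when the 5 hypothalamic libraries low in cilia genes were left out. Tanycyte genes (17 tested, median 0.05), choroid plexus genes (17, 0.08), oligodendrocyte and myelin genes (23, 0.12) and neuron and synapse genes (25, 0.00) had no member with a p under 0.05, and these medians rested on single libraries. Without TBI + VH replicate 1 the tanycyte median was -0.12 and the choroid plexus median -0.06. Without TBI + VH replicate 4 the tanycyte median was 0.23 and the oligodendrocyte median -0.07, and that library's summed oligodendrocyte level was 9976 CPM, against 5438 to 6531 CPM in the rest of its group and 5500 to 6673 CPM in Sham + VH. Of 18 astrocyte genes 17 lay above 0, beside 50.8% of all genes, with Gjb6 alone under 0.05 (0.20). Without TBI + VH replicate 1 the astrocyte median went from 0.05 to 0.10 and 4 members had a p under 0.05 on the higher side, beside 1.29% of all genes with every library in. Blood and border leukocyte genes had the highest median, 0.30 over 15 tested, but wide errors: Hba-a2, an alpha globin, was at 15.4, 12.2, 5.62 and 1.71 CPM against 6.47, 10.5, 15.9 and 28.9 CPM, and no member had a p under 0.05. The median of this list ran from 0.19 to 0.52 with single vehicle libraries left out. Of 13 thalamus genes Zic1 was at -0.34 and of 16 axon injury genes Hmox1 was at 0.22. Each was the single member of its list with a p under 0.05, beside 1.5% of all genes on the lower side and 1.29% on the higher. Neither list had such a member in every setting.

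**Figure D5:**
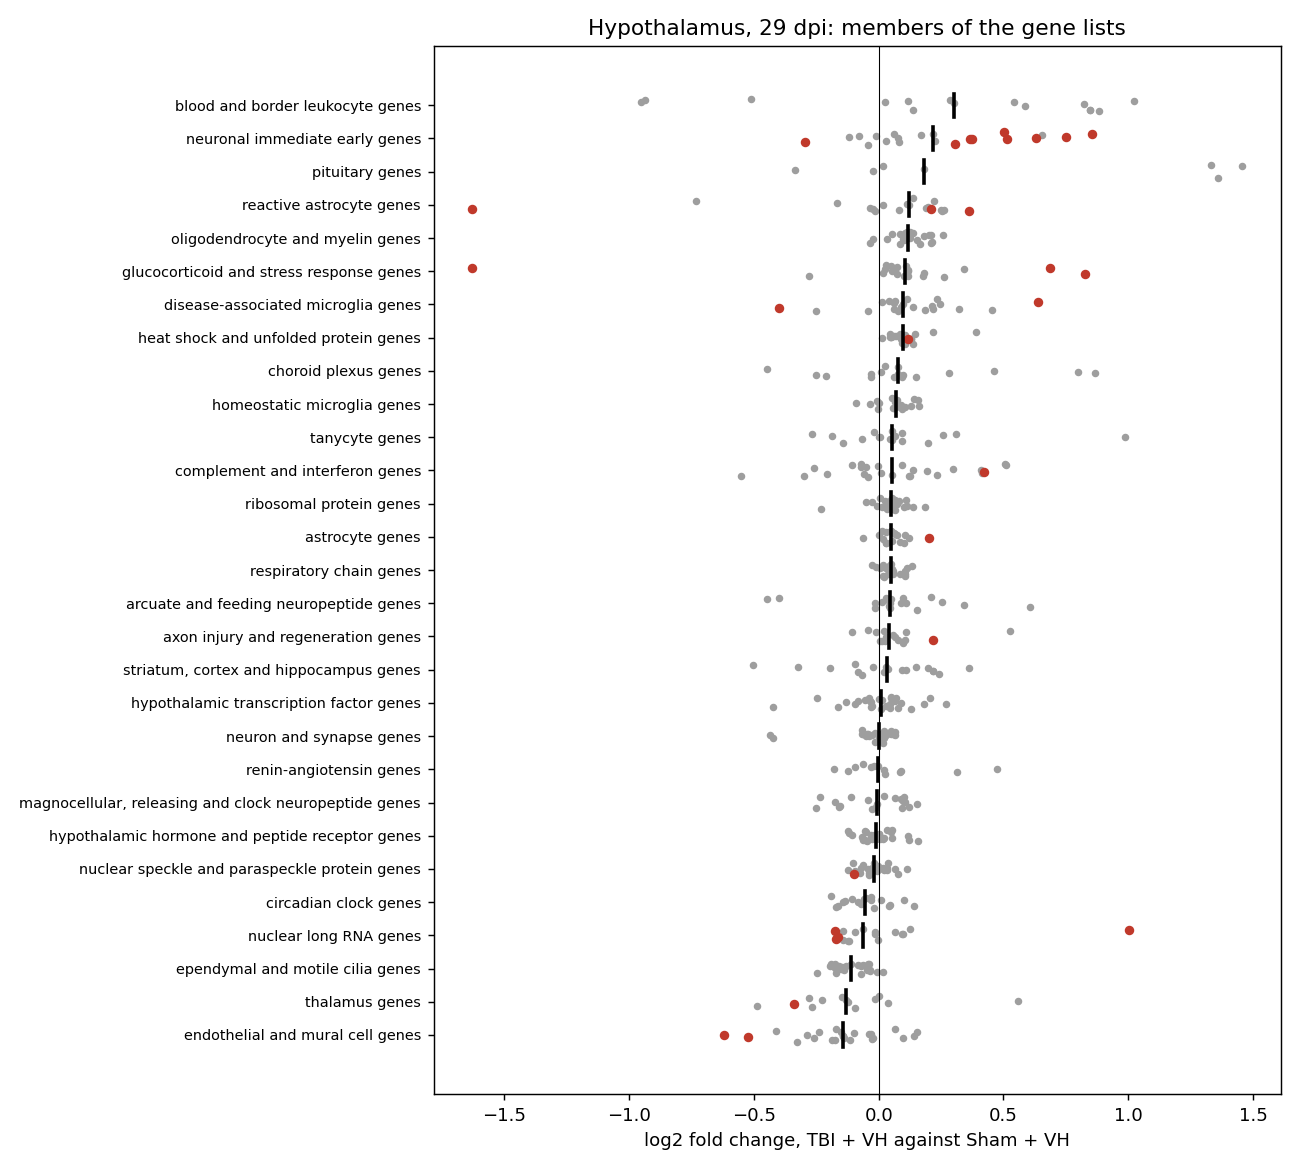
Log2 fold change of TBI + VH against Sham + VH (x axis) for the tested members of 29 gene lists (one line each on the y axis; red, unadjusted p under 0.05; black bar, the list median). Malat1, at 1.0 in the nuclear long RNA list, is the single listed gene called, and most medians lie within 0.1 of 0.

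Genes of the respiratory chain, which makes the cell's ATP, and of the ribosome, which makes its proteins, had medians near 0, and no member had a p under 0.05 in vehicle mice. The median of 23 respiratory chain genes was 0.05 and was 0.00 without TBI + VH replicate 4, whose summed level of 3429 CPM stood apart from the 2873 to 3042 CPM of the rest of its group and the 2921 to 3032 CPM of Sham + VH. The median of 28 ribosomal protein genes was 0.05 and was 0.02 without that library. Lists with no member at a p under 0.05 had at most 3 on either side in the other settings. Over all lists, 566 distinct genes were tested and 1 was called.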

How the data were processed

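The authors deposited whole-number counts per gene for 32594 gene symbols, with no normalization, 1 column per library. Reads came from TruSeq stranded mRNA libraries (poly(A) RNA, RQI above 8), and the submitters' processing notes name MapSplice 2.2.1, HTSeq 0.9.1 and the mm10 build. The handling of strand and of reads shared by several genes is not given in the sources used here, so paralogs and overlapping genes are uncertain. Malat1 overlaps Gm37376 and Gm27694 in GENCODE vM21, which are not among the counted symbols. BC071253 and GU332589 have no position in that annotation, so their overlap with Malat1 could not be checked. Positions come from GENCODE vM21, in which 23032 of the symbols (70.7%) were found.

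The 16 hypothalamic libraries at 29 dpi were fitted together in edgeR 4.0.16 (R 4.3.3; filterByExpr, TMM factors, 2-sided quasi-likelihood F test) without covariates, and Benjamini-Hochberg adjustment ran over all genes tested in each of 9 comparisons. A gene is called at an FDR under 0.05 with an absolute log2 fold change above 0.32. CPM use TMM-scaled totals, and log2 CPM a prior count of 2. Differences between times or regions were contrasts in joint fits. DESeq2 1.42.0 and the settings given in the closing section were alternatives. The steps were tested on simulated data.

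Named genes are those called by edgeR or DESeq2, the 10 smallest p in each direction with a mean of at least 1 CPM, the 3 most abundant members of each list and members with p under 0.05, angiotensin genes, the largest hippocampal calls and the called differences; further list members named for their role were chosen after their values were seen. The comparison and the 29 lists (607 genes) were chosen with earlier results of these data known. Replicate libraries differed by more than sampling noise (chi-square per degree of freedom 2.77 to 27.2 over 24 pairs). The values of 1 listed gene are not reported here.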

Additional observations from a re-analysis of the deposited data

Results flagged for a closer look

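In groups of 4 libraries, Dixon's gap test marked 6 of 118 groups of values, and chance marks about 1 in 20. Pomc, Gh, Ccdc153, Neat1 and the motile cilia score were added by choice to the named genes. Most of the marks fall on these additions, so the 6 of 118 cannot be read against that rate. Fosb was at 4.80 CPM in Sham + VH replicate 2, against 2.0 to 2.39 CPM in its group, and Cybb in the same library was at 1.49 CPM against 0.673 to 0.799 CPM. Pomc was at 351 CPM in Sham + VH replicate 3, against 29.2 to 44.7 CPM, and at 194 CPM in TBI + VH replicate 4, against 38.2 to 57.0 CPM. Gh was at 68.8 CPM in Sham + VH replicate 3, against 0.81 to 1.97 CPM. The mean log2 CPM of the motile cilia genes was 0.60 in TBI + VH replicate 4, against 3.66 to 4.09.

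The injury effect differed between the hypothalamus and the hippocampus, as a tested difference of log2 fold changes (edgeR's quasi-likelihood test, FDR under 0.05), by 1.24 for Malat1, -1.24 for P4ha3, -1.64 for C4b, -6.49 for Tgm1, -1.41 for Klhl6, -2.44 for Lyz2, -1.90 for St14, -0.40 for Myo1c, -2.58 for C3 and -0.80 for Kcne1l. Tgm1 was too low to be tested in the hypothalamus alone. Between the hypothalamus and the thalamus it differed by 1.08 for Malat1.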

How the results depend on the processing

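Malat1 was the 1 call with RLE factors, with no filter on low counts, with the FDR as the sole criterion, with the motile cilia score as a covariate and with the replicate block (FDR 0.0381). DESeq2 called 2 genes, the 8 libraries alone gave 2 and the likelihood ratio test 3 (Malat1, BC071253 and Slc38a5). Leaving out each library in turn gave 0 to 2 calls, with 0 in 11 of 16 and 2 without TBI + CD replicate 3. The log2 fold change of Malat1 then ran from 0.930 to 1.078, so the call, not the direction, depends on single libraries. Its mean over the vehicle and candesartan injury effects was 0.78 (FDR 0.00782); this setting, the count of immediate early genes and the set without the 5 libraries low in cilia genes were chosen after seeing the data. The immediate early genes with a p under 0.05 numbered 5 to 10 with each library left out and 2 for the mean of both treatments. In candesartan mice DESeq2 called 1 gene. In the hippocampus DESeq2 called 140 genes and the 8 libraries alone 42, with 63 to 94 as libraries were left out. The difference between hypothalamus and hippocampus had 19 calls in DESeq2 and 5 to 19 with libraries left out, 5 without hippocampal TBI + VH replicate 4 and 19 without hypothalamic TBI + VH replicate 1. No called gene turned direction under these settings, and the cause of these changes was not tested. Sham and injured vehicle libraries of the hypothalamus at 29 dpi did not deviate together by replicate number. The correlations were -0.01 to 0.17, with 1 of 4 above 0.1. That check does not cover libraries of other regions. Gh was high in Sham + VH replicate 3 of the hypothalamus and hippocampus (68.8 and 211 CPM), not of the thalamus (0.775 CPM). In TBI + VH replicate 4 Gh was high in the hypothalamus and thalamus (176 and 60.1 CPM), not in the hippocampus (0 CPM). Whether regions share mice was not tested. At this depth, genes of low count, such as Itgax, Kiss1 or Lcn2, have intervals wider than 1 log2 unit.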
